A study of Mus musculus with 10 samples.

Results

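KLF and MYC family genes encode relatives of KLF4 and MYC, 2 of the factors used to reprogram somatic cells to pluripotency. Their endogenous loci were searched for ZFP266 DamID-seq peaks in mouse embryonic fibroblasts (MEFs). The 10 genes were Klf3, Klf4, Klf5, Klf6, Klf7, Klf9, Klf10, Klf12, Myc and Mycn, out of 21000 protein-coding genes with a curated RefSeq transcript on GRCm38. A peak was assigned to a gene when it shared at least 1 base with the gene or with the 50 kb on either side of it. Of the 15119 peaks, 40 met this rule, and none of them was assigned to more than 1 of the 10 genes. The genes were not chosen by their peaks, but they were chosen with earlier results of these data known.

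In DamID-seq a protein is fused to the bacterial adenine methyltransferase Dam, which methylates GATC sequences near the places where the fusion protein sits. DpnI cuts methylated GATC sites, and the fragments it leaves are amplified and sequenced. MEFs of strain 129 received the PGK-mO-Dam-Zfp266 plasmid (Dam-ZFP266, 5 samples) or PGK-mO-Dam (Dam only, 5 samples), and genomic DNA, 32 ng a sample, came from fluorescent cells sorted 48 h after nucleofection. The labels name mOrange as the marker of the sort, whereas the published methods name GFP. No reprogramming factor is named in the labels of either group, and no deletion of Zfp266 is named for either. In both plasmids the PGK promoter drives mOrange, and Dam or its fusion is made only by reinitiation of translation, so the tagged protein comes from a transient plasmid. The deposited list pools the 10 samples in 1 contrast of Dam-ZFP266 over Dam only. This list was the only file used, and it gives neither the read depth nor the spread between replicates. No test over samples could be made from it, and the cell type could not be checked against markers.

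KLF proteins share 3 zinc fingers at their C terminus that read CACCC boxes and related GC-rich DNA. KLF4 and KLF5 activate genes of pluripotent cells, KLF3 and KLF12 repress through the corepressor CtBP, and several members respond quickly to growth factors or hormones. MYC and MYCN are basic helix-loop-helix proteins that bind DNA with MAX and promote growth and proliferation. B1 SINEs are short retrotransposed repeats that occur in very many copies in the mouse genome, and AP-1 is the dimer of FOS and JUN proteins that binds TGACTCA or TGAGTCA. ZFP266 is a KRAB zinc finger protein.

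A peak lay within 50 kb of 9 of the 10 genes, whereas 49.7% of all protein-coding genes had such a peak. The exception was Klf4. Klf9 had 9 peaks, Klf3 and Klf6 had 7 each, Klf5 had 6, Myc had 4, Klf7 had 3 and Klf10 had 2. Klf12 and Mycn had 1 peak each. A peak in the gene body was found for 4 genes, Klf3, Klf7, Klf9 and Klf12, and for 17.1% of all protein-coding genes.

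The sequences behind these peaks fall into 3 sets. They are GRCm38 sequences from RefSeq, which represents the strain C57BL/6J, so that differences of strain 129 are not shown. The first set shows 4 B1 SINEs of member peaks that reach the KLF core near the start of the repeat, beside the 136 bp consensus built from copies on chromosome 19. The consensus carries this core from base 5 to base 12, and the Klf9 element begins with it. Each element is read on its own strand, and capitals mark a KLF core motif.
B1 consensus: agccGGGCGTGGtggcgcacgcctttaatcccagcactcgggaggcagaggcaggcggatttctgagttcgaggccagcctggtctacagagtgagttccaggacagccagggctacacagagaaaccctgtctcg
Klf9 peak 1, chr19:23089889-23089992, minus strand: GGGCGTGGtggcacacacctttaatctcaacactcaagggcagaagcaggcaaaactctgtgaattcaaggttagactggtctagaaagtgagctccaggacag
Klf7 peak 2, chr1:64108622-64108757, plus strand: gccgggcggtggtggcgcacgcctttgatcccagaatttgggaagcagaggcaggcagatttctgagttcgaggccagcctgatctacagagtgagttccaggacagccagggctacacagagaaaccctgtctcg
Klf10 peak 1, chr15:38246922-38247057, minus strand: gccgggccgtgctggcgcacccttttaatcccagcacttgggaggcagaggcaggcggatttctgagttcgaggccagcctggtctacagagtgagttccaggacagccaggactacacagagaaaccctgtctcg
Myc peak 4, chr15:62035972-62036103, minus strand: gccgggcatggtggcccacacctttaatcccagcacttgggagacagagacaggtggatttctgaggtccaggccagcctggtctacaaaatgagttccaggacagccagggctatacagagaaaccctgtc

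The second set shows overlapping KLF core motifs from a peak at Klf9 and a peak at Klf5, to show how matches outside B1 SINEs run together. They are given on the plus strand of the reference, with the run in capitals.
Klf9 peak 5, chr19:23152401-23152449: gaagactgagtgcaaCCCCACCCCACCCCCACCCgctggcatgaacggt
Klf5 peak 3, chr14:99319975-99320025: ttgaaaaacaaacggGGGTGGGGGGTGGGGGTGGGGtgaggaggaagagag

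The third set shows AP-1 motifs, in capitals with 15 bases to each side on the plus strand, from a peak inside Klf7 that also holds a B1 SINE and from the widest of the member peaks, upstream of Klf6, which holds none.
Klf7 peak 2, motif at chr1:64108365-64108371: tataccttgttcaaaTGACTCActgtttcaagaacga
Klf7 peak 2, motif at chr1:64109179-64109185: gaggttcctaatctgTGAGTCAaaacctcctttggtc
Klf6 peak 4, motif at chr13:5837025-5837031: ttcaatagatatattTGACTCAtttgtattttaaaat
Klf6 peak 4, motif at chr13:5837531-5837537: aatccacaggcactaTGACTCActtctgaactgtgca
Klf6 peak 4, motif at chr13:5837609-5837615: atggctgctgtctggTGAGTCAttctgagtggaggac

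The windows of the 10 genes, which are the genes with their 50 kb flanks, spanned 1.47 Mb in all and held 27.2 peaks per Mb. The density was 5.71 peaks per Mb over the ungapped genome and 7.86 per Mb over the windows of all protein-coding genes. Peaks covered 5.22% of the bases of these windows and 1.18% of the ungapped genome. The median number of peaks was 3.5 over the 10 genes and 0 over all genes. Of all protein-coding genes, 99.1% had fewer peaks than Klf9, 98.0% fewer than Klf3 and Klf6, 96.9% fewer than Klf5, 91.3% fewer than Myc and 84.7% fewer than Klf7. Longer genes have longer windows, and per Mb of window the order began with Klf9 (70.9), Klf6 (64.3), Klf3 (54.1), Klf5 (52.3) and Myc (38.1). Klf10 (18.3), Klf7 (16.2), Mycn (9.46), Klf12 (2.64) and Klf4 (0) followed. Klf12 had the longest of these genes (279 kb), and its density was the only nonzero one below that of the genome.

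**Figure D1:**
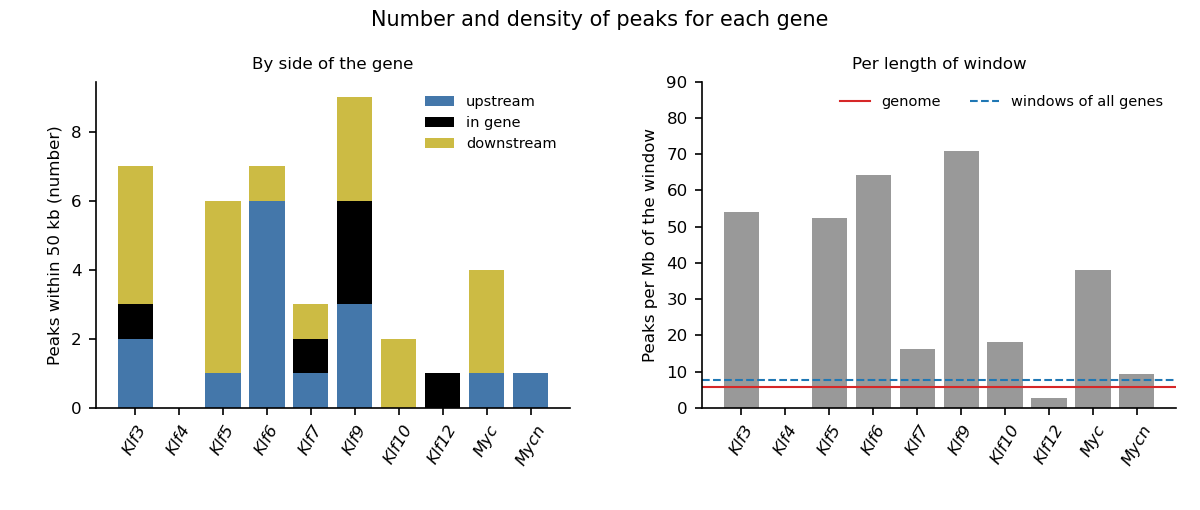
Number of peaks within 50 kb of each gene, split by side (left, bars start at 0), and the same peaks per Mb of the window (right), with lines for the ungapped genome (5.71 per Mb) and for the windows of all protein-coding genes (7.86 per Mb). Klf9 has the most peaks (9) and the highest density (70.9 per Mb), and Klf4 has none.

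Peaks were found on all sides of the genes, with 15 upstream, 6 in a gene and 19 downstream. By their midpoint, set against curated transcripts of protein-coding genes only, 34 peaks were intergenic, 5 were intronic and 1 was in the 3′ UTR of Klf9. Some peaks of Klf3, Klf6, Klf7 and Klf9 that counted as intergenic overlapped genes of noncoding RNA. No member peak shared a base with a promoter of a protein-coding gene, defined as the 1000 bp before and the 100 bp after a curated transcript start. Starts of noncoding RNA genes and of predicted transcripts were not searched. The peak nearest to a start site of these genes was Klf3 peak 2, which ended 2387 bp before the start of Klf3. Among curated transcripts of protein-coding genes, the nearest start was that of the gene itself for 36 of the 40 peaks. The others were 2 downstream peaks of Klf3, nearer to Tlr1, which encodes a Toll-like receptor, and both peaks of Klf10, nearer to Odf1, which encodes a protein of the sperm tail. Shares over all peaks were not computed for location, promoters or the nearest start. Flanks make up most of the windows, so these counts are not read as a trait of the genes. When peaks less than 1000 bp apart were joined, 33 loci remained, of which 6 consisted of 2 or more peaks. All peaks were not joined in this way, so no share stands beside this count.

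**Figure D2:**
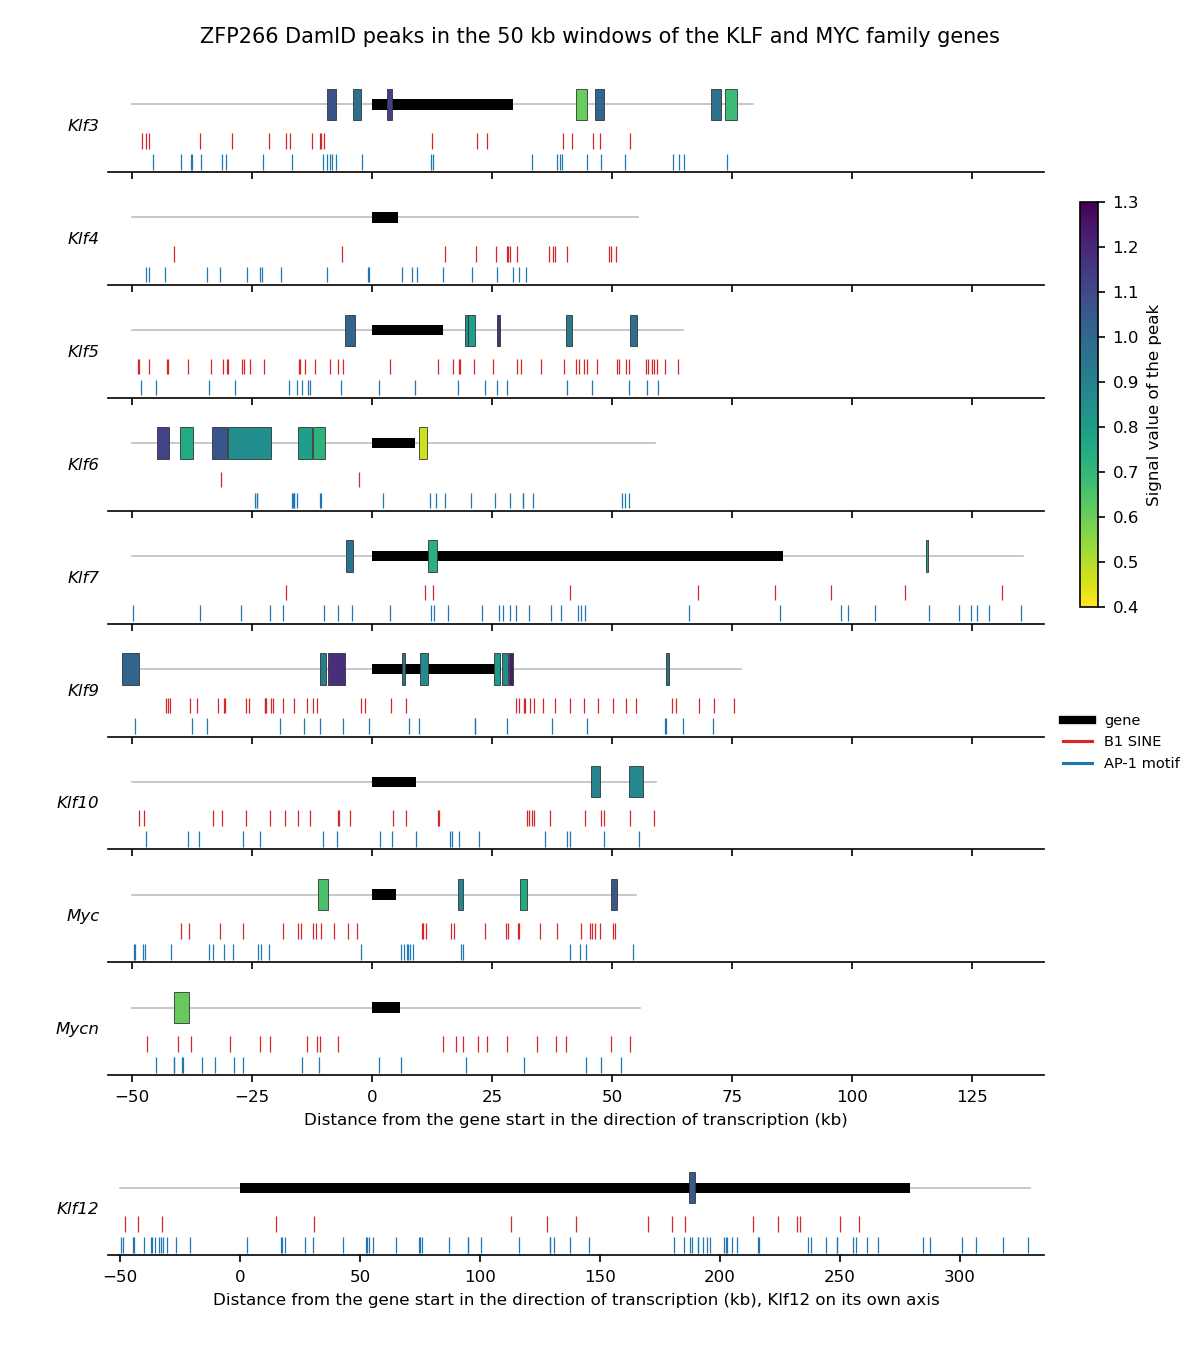
Peaks (boxes coloured by signal value), gene bodies (black bars), B1 SINEs (red ticks) and AP-1 motifs (blue ticks) in the window of each gene. The x axis is the distance in kb from the gene start in the direction of transcription, and Klf12 has an axis of its own. Klf6 carries 6 of its 7 peaks upstream and Klf5 carries 5 of its 6 downstream. The window of Klf4 holds no peak, 16 B1 SINEs and 21 AP-1 motifs.

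Klf4 encodes a reprogramming factor and a regulator of epithelial and pluripotent cells. The gene lies on the minus strand at chr4:55527137-55532475. Its nearest peak was 118016 bp downstream of the gene, at chr4:55408061-55409121, with a signal value of 0.791 and a q-value of 0.0938, close to the limit of 0.1 that the list reaches. On the upstream side the nearest peak was 184906 bp away. The stretch free of peaks around Klf4 spanned 308 kb, and 30.8% of protein-coding genes lay farther from their nearest peak. The window of Klf4 held 16 B1 SINEs, or 15.2 per 100 kb where the genome holds 10.3. It also held 21 AP-1 motifs and 41 KLF motifs, for which no genome rate was computed. It was divided into 234 DpnII fragments, the fewest of the 10 windows. Of these, 20 were at least 1000 bp long. The windows of the other 7 genes shorter than 30 kb had 18 to 33 such fragments. Why Klf4 had no peak was not tested.

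Myc encodes the other reprogramming factor of the set. At chr15:61985341-61990361 on the plus strand, it had 1 peak 9236 bp upstream and 3 peaks downstream, at 12815, 25851 and 44827 bp. Their signal values, in that order, were 0.658, 0.888, 0.752 and 1.05, and only the upstream peak had a q-value under 0.05 (0.0425). The most distant of these peaks, chr15:62035188-62036407, was a single DpnII fragment of 1220 bp with 2 B1 SINEs of 91.2% and 90.9% identity to the consensus. The upstream peak held another B1 SINE, of 77.1% identity. The AP-1 motif of the Myc window that lay in a peak was in peak 2, and the KLF motif was in peak 3. No Myc peak held more than 1 of the 3 kinds of element. From 50 to 100 kb there were 8 further peaks, the most of any of the 10 genes at that distance.

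Mycn, the neural and embryonic relative of Myc, lies at chr12:12936093-12941836 on the minus strand and had 1 peak. It lay 38204 bp upstream at chr12:12980040-12982997, with a signal value of 0.613 and a q-value of 0.0942, the highest q-value among the member peaks. This peak of 3 fragments held a B1 SINE of 74.2% identity, the least similar to the consensus in the set, and 2 AP-1 motifs 753 and 1029 bp from it. On the other side of the gene the nearest peak was 422551 bp away.

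Klf5 is active in pluripotent cells and in proliferating epithelium. It lies at chr14:99298691-99313412 on the plus strand, with 1 peak 3488 bp upstream and 5 peaks between 4563 and 39089 bp downstream. Their signal values ran from 0.80 to 1.17, and each peak was a single DpnII fragment. The upstream peak (signal value 1.01, q = 0.0237) and peak 4 (1.17, q = 0.0283) passed both a signal value above 1 and a q-value under 0.05. Peak 4 was short, at 510 bp, and held none of the searched elements. Peak 3 held a B1 SINE of 87.7% identity and the run of 3 overlapping KLF motifs printed above, which began 14 bp after the end of the SINE. Although the window of Klf5 held 48 B1 SINEs (41.8 per 100 kb), the most of the 10 windows, 1 of them lay in a peak.

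Klf3 encodes a repressor that acts in blood and fat cells. The gene lies at chr5:64803521-64832901 on the plus strand. Peak 3 lay in its first intron, with its midpoint 3734 bp from the start site, as a single fragment of 1039 bp with a signal value of 1.13 and a q-value of 0.0425. The gene model Gm38457 overlaps the same peak. Upstream, peaks 1 and 2 lay 7477 and 2387 bp from the gene with signal values of 1.07 and 0.975. Downstream, 4 peaks lay from 13108 to 44184 bp with signal values of 0.606, 1.01, 0.964 and 0.687. Of the 7 peaks, 5 had a q-value under 0.05, the largest number of any of the 10 genes. A KLF motif was present in 6 of these peaks, 4 of which held no other element, and the peak without a KLF motif held a B1 SINE of 78.0% identity and 1 AP-1 motif.

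Klf12, which encodes a second repressor of the family, lies at chr14:99870632-100149796 on the minus strand. Its peak at chr14:99960329-99962622 was a single fragment in the fourth of the 6 introns, 188320 bp from the start to its midpoint, with a signal value of 1.05 and a q-value of 0.0121. It held 2 AP-1 motifs and 1 KLF motif. The window of Klf12 contained 70 AP-1 motifs, the most of the 10, and the 2 in this peak were the only ones in a peak.

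Klf9 responds to glucocorticoids and thyroid hormone. It lies at chr19:23141226-23168129 on the plus strand, with 3 peaks upstream, 3 in the gene and 3 downstream. Signal values ran from 0.809 to 1.23, and 3 peaks passed the stricter limits on signal and q-value. The highest signal value among all member peaks, 1.23 (q = 0.0100), belonged to peak 8, a single fragment of 864 bp that started 1631 bp after the end of the gene. With peaks 6 and 7 it formed a group of 3 peaks over 4083 bp across the end of the gene, separated by gaps of 252 and 211 bp. Peaks 4 and 5 lay in the intron and peak 6 in the last exon. Upstream, peak 3 (signal value 1.18, q = 0.0440) held 1 AP-1 and 4 KLF motifs.

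The outermost Klf9 peak, peak 1 at chr19:23089102-23092615, ended 48611 bp before the gene and was the member peak farthest from its gene. It had a signal value of 1.01 and a q-value of 0.00540, and it held 2 B1 SINEs, 2 AP-1 motifs and 2 KLF motifs. Both SINEs and the midpoint of the peak lay beyond the 50 kb window. The midpoint was at -50367 bp and the SINE printed above at -51285 bp from the gene start, where negative values are upstream. The 2 KLF motifs were in the SINEs, and no other SINE of a member peak held one. The printed SINE, of 79.0% identity, kept all 8 bases of the core. The window of Klf9 itself held 43 B1 SINEs, and 0 of them lay in a peak.

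Klf6 is an early response gene. It lies at chr13:5861489-5870393 on the plus strand and had 6 peaks from 9870 to 42331 bp upstream and 1 peak 883 bp downstream. These peaks covered 22.2% of its window, the largest share of the 10 genes. Each of them spanned 2 or more DpnII fragments. Peak 4, at chr13:5831558-5840478, was 8921 bp long over 9 fragments, longer than 99.8% of all peaks, and lay 349 bp from peak 3. It held the 3 AP-1 motifs printed above, 5 KLF motifs and no B1 SINE, and had a signal value of 0.858 with a q-value of 0.0264. Peak 5 had the lowest q-value of the member peaks, 0.000792, at a signal value of 0.80. The peak downstream of Klf6 had the lowest signal value of the member peaks (0.468, q = 0.0674) and held no element. Klf6 also had the fewest B1 SINEs, with 2 in its window, 1 of them in peak 3 (94.5% identity). The noncoding RNA gene Gm35464 overlaps peaks 3 and 4.

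Klf10, a gene induced early by TGF-beta, lies at chr15:38291464-38300711 on the minus strand and had 2 peaks, 36338 and 44270 bp downstream. The farther of them, peak 1 at chr15:38244224-38247194, had a q-value of 0.00221 at a signal value of 0.88. It held 11 KLF motifs, more than any other member peak, but many of these overlapped, and they formed 4 separate sites. An AP-1 motif lay 4 bases from another of them. The B1 SINE of this peak was 95.6% identical to the consensus, and in its KLF core it had G12C (positions count from 1 at the first base of the consensus) and 1 inserted base. Peak 2 (signal value 0.905, q = 0.0660) held 1 KLF motif.

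Klf7, which acts in the nervous system, lies at chr1:64035663-64121389 on the minus strand. Peak 2 lay in the first of its 3 introns, with its midpoint 12565 bp from the start, at chr1:64107900-64109747, with a signal value of 0.730 and a q-value of 0.0797. It contained the B1 SINE of 94.1% identity printed above, with AP-1 motifs 250 bp to its left and 421 bp to its right. It was the only member peak in a gene body with a B1 SINE, and 1 inserted base interrupts the KLF core of that SINE. The upstream peak, 4018 bp from the gene, had a signal value of 0.955 (q = 0.0440) and 1 AP-1 motif. The downstream peak, at 29777 bp, was a fragment of 425 bp with a signal value of 0.794 and no element. None of the 3 Klf7 peaks held a KLF motif, although the window held 64.

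The member peaks were similar in size and signal to all peaks. Their median length was 1764 bp (range 425 to 8921 bp), against 1777 bp for all peaks. The median signal value was 0.907 (range 0.468 to 1.23) for member peaks and 0.898 for all, where the highest was 8.66. The methods name a log2 fold change among the example limits of the peak calling, but it is not stated whether the signal value is that quantity, so it is not read as a fold. A q-value under 0.05 was found for 17 of the 40 member peaks (42.5%) and for 52.5% of all peaks. The stricter limits, a signal value above 1 with a q-value under 0.05, take the size of those example limits, at which the list had not been cut. They were passed by 9 member peaks (22.5%), a share near the 26.4% of all peaks (3986 of 15119). These 9 peaks belonged to Klf9 (3), Klf3 (2), Klf5 (2), Klf6 (1) and Klf12 (1), so that 5 of the 10 genes kept a peak, against 21.9% of all genes. Single fragments made up 24 of the 40 peaks (55.7% of all peaks).

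**Figure D3:**
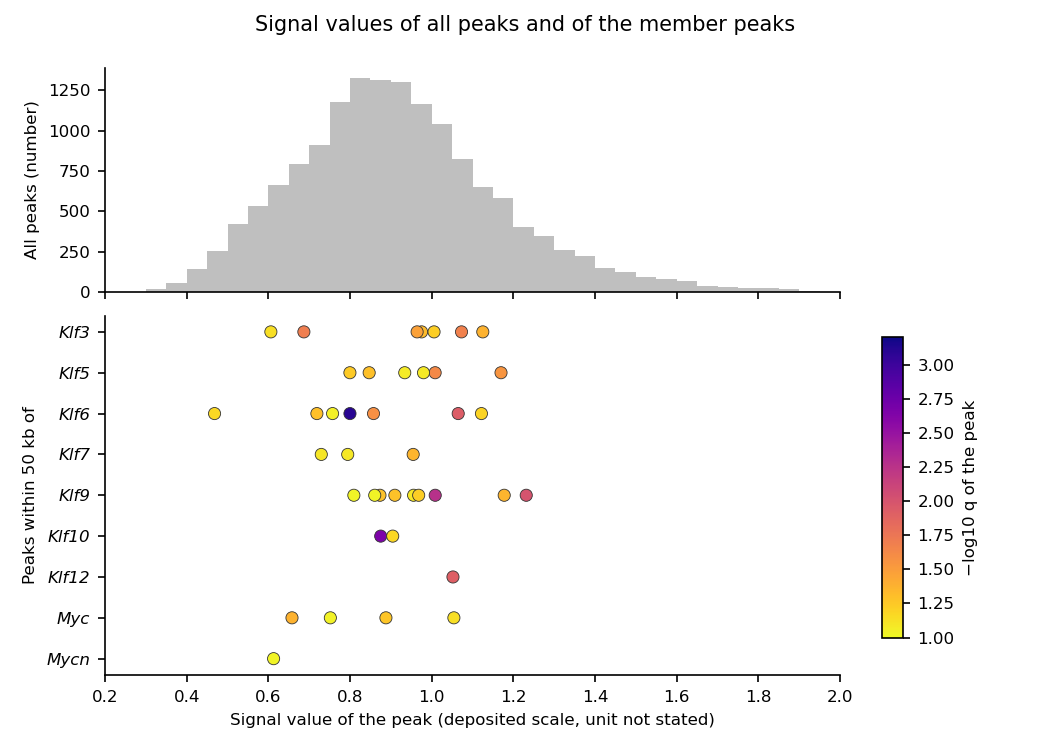
Signal values of all peaks as a histogram (top; the 27 peaks at 2 or more are not drawn) and of each member peak by gene (bottom, points coloured by −log10 q). The member peaks lie between 0.468 (Klf6) and 1.23 (Klf9), in the bulk of the values of all peaks, and the lowest q-values belong to a Klf6 peak and a Klf10 peak.

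The element content was counted next. A B1 SINE was a match to the consensus of at least 80 bp at 70% identity. An AP-1 motif was TGACTCA or TGAGTCA. A KLF motif was CCACACCC, CCACGCCC, CCCCACCC or CCCCGCCC, or the reverse complement of any of them. Matches that shared bases were counted separately. A B1 SINE was present in 9 of the 40 member peaks (22.5%, Wilson 95% interval 12.3 to 37.5%) and in 32.6% of all peaks. An AP-1 motif was present in 16 (40.0%, interval 26.3 to 55.4%), against 44.2% of all peaks. A KLF motif was present in 22 (55.0%, interval 39.8 to 69.3%), against 41.9% of all peaks. The share in all peaks lay within the interval in each of the 3 cases. The intervals cover counting error only, and neighbouring peaks of a gene are not independent. The KLF share depended on what was counted. With a G required before the KLF core (9 letters) it was 12.5% of member peaks, next to 12.4% of all peaks. In the central 500 bp of the peaks it was 30% (12 of 40, interval 18.1 to 45.4%), and the 14.8% of all peaks lay below this interval. Among the 9 stricter peaks it was 77.8% (7 peaks, interval 45.3 to 93.7%), against 37.8% of all stricter peaks.

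**Figure D4:**
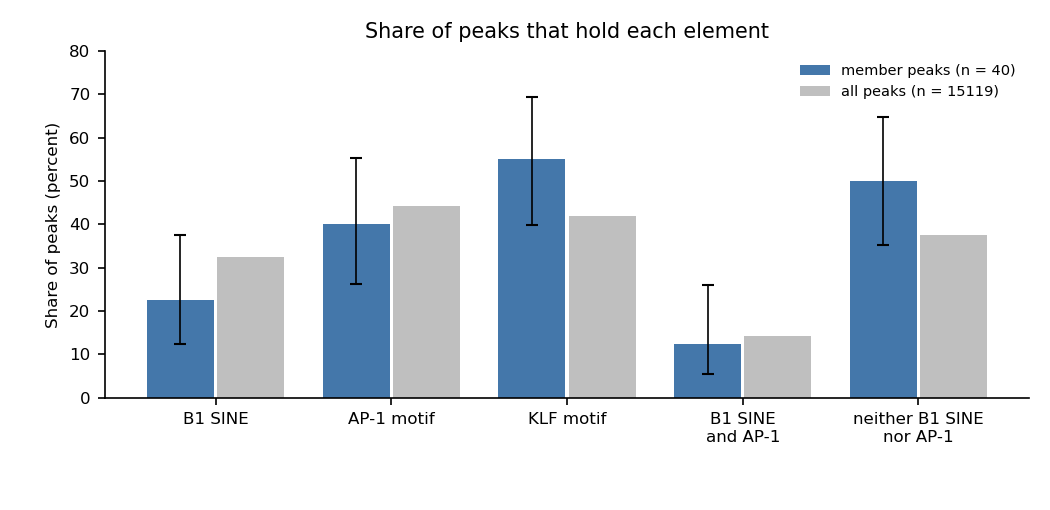
Share of peaks with each element in percent, for the 40 member peaks (blue, with Wilson 95% intervals) and for all 15119 peaks (grey). The interval of the member peaks includes the value of all peaks for each of the elements and for both combinations.

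**Figure D5:**
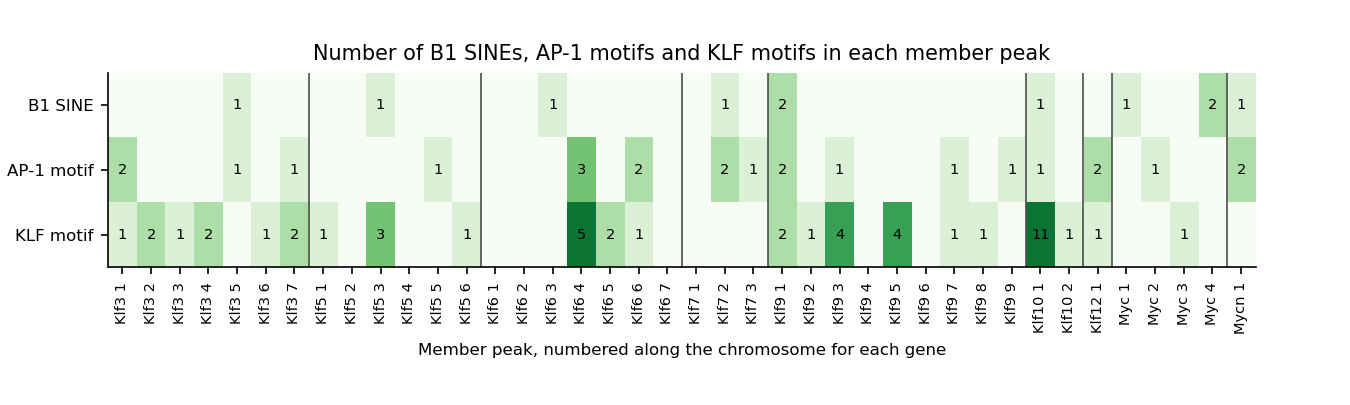
Number of B1 SINEs, AP-1 motifs and KLF motifs (rows) in each of the 40 member peaks (columns, numbered along the chromosome for each gene; empty cells are 0). KLF motifs occur in 6 of 7 Klf3 peaks and in 0 of 3 Klf7 peaks, and Klf10 peak 1 holds 11.

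A B1 SINE and an AP-1 motif occurred together in 5 member peaks (12.5%, against 14.3% of all peaks), 1 each at Klf3, Klf7, Klf9, Klf10 and Mycn. Neither was found in 20 of the 40 member peaks, and in 37.5% of all peaks. All 3 kinds of element were present in 2 peaks, Klf9 peak 1 and Klf10 peak 1 (5%, against 8.46% of all peaks). None of them was present in 8 peaks (20%, against 24.6% of all peaks). Of these 8, 3 belonged to Klf6, 2 each to Klf5 and Klf9, and 1 to Klf7. The 24 AP-1 motifs of member peaks all lay outside B1 SINEs. The 8 of them in a peak with a B1 SINE were between 200 and 1781 bp from the nearest one. How often AP-1 motifs lie inside B1 SINEs over all peaks was not computed. Their place outside B1 SINEs is therefore not read as a trait of the genes.

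Of the 49 KLF occurrences in member peaks, 36 (73.5%) were CCCCACCC or its reverse complement, which made up 47.8% of the occurrences in all peaks. Copies of this word can overlap, and 1 run of 42 bp in Klf10 peak 1 supplied 7 of them. Its share after merging overlaps was not counted. CCACACCC accounted for 10, CCCCGCCC for 2 and CCACGCCC, the word of the B1 consensus, for 1. Overlapping occurrences merged into 36 sites. Occurrences inside a B1 SINE numbered 2 (4.08%, against 9.50% over all peaks), both at Klf9. The 11 B1 SINEs of member peaks had a median identity of 90.9% to the consensus, against 87.9% over the genome, with a range from 74.2 to 97.8%. A KLF motif was present in 2 of the 11, and in 16.2% of the B1 SINEs in all peaks. Of the other 9, 5 were too short at their start to cover any base of the core. The core of the Myc element printed above carried G9A.

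Against the windows as a whole, 9 of their 234 B1 SINEs (3.85%) lay in a peak, while 2.56% of the B1 SINEs of the genome did. Of the 278 AP-1 motifs of the windows, 23 (8.27%) lay in a peak, against 2.37% genome-wide. Of the 493 KLF motifs, 47 (9.53%) did, against 1.75%. Overlapping KLF matches were counted separately in both, and Klf10 peak 1 alone supplied 11 of the 47, which formed 4 sites. The shares of the windows stand beside the 5.22% of window bases that peaks covered. Over the genome, 2.56% of B1 SINEs stood beside 1.18% of bases in peaks. An element counted when any of its bases lay in a peak, so shares of elements and of bases are unlike measures. The B1 share of the windows rests on 9 elements, and the 2 B1 SINEs of Klf9 peak 1, beyond the window, are not among them. Whether it differs from the share of bases was not tested.

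The 50 kb limit left out peaks near the edge. The farthest peaks inside it lay at 48611 bp (Klf9), 44827 bp (Myc), 44270 bp (Klf10) and 44184 bp (Klf3). The nearest outside lay at 50192 bp (Klf6), 56181 bp (Myc), 56190 bp (Klf3) and 59199 bp (Klf5). At 100 kb the same 9 genes had a peak and Klf4 had none, with 65.4% of all genes having a peak at that distance. At 10 kb 7 of the 10 genes had a peak, against 27.2% of all genes.

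Other genes of the KLF, SP and MYC network were read in the same way. SP proteins share the zinc fingers of KLFs, and the MYC network comprises MAX, its dimer partners and their relatives. Of 29 such genes, 17 had a peak within 50 kb, next to the 49.7% of all genes. These were 6 of 9 further KLF genes, 5 of 9 SP genes and 6 of 11 MYC network genes. The median number of peaks was 1 for these 29 genes. A peak overlapped the gene body of 6 of these 29 genes, and of 17.1% of all protein-coding genes. Klf13 had 6 peaks, all in the gene, with signal values from 0.467 to 1.06. A KLF motif was present in 5 of them, an AP-1 motif in 4 and a B1 SINE in 2. Over all peaks these shares were 41.9%, 44.2% and 32.6%. Sp1, which encodes a widely expressed GC box factor, had 2 peaks in the gene with signal values of 1.32 and 1.28. Klf16 (0.729), Sp3 (0.917), Mga (0.779) and Mlxipl (0.871) had 1 gene body peak each. Sp1 and Sp7 are neighbours and share peaks. Klf2, Klf11 and Klf17 had 0 peaks within 50 kb, as did Klf4.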

How the data were processed

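Reads were trimmed by the authors with cutadapt, placed on GRCm38 (GRCm38.p6 in the submitters' processing notes, which also name FastQC) with BWA, and summed over DpnII fragments with Rsubread. Peaks were then called with Daim. Versions are not given in the sources used here. The deposited list holds a score (415 to 1000) and a signal value for each peak, both made by the authors from all 10 samples together. Further deposited columns, −log10 p and −log10 q of the authors' contrast, served here to describe and filter peaks (q at most 0.1). No column of per-sample values was used or left out (0). Read coverage tracks were not analysed here.

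Positions are 1-based, and all 15119 peaks start and end within a GATC of GRCm38. Gene extents came from curated RefSeq transcripts. The B1 consensus was extended by majority (at least 45%) from the most frequent 15-mer on chromosome 19 that held a 9-base anchor of the family (3085 copies), and elements were matched with blastn (BLAST+ 2.17.0), keeping the best of overlapping hits. This gave 273214 elements. Elements were aligned to the consensus with Biopython 1.88. Motifs were exact matches on both strands. Python 3.11.15, pandas 2.3.3, NumPy 2.4.6, SciPy 1.17.1 and matplotlib 3.10.9 were used, and the counting steps were tested on simulated regions. Shares of peaks carry Wilson 95% intervals. Depth is unknown, and no test was run.

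The members and lists were chosen with earlier results of these data known. Genes named are the 10 members, the gene with the nearest transcript start where that is another gene, and the listed KLF, SP and MYC network genes with a peak in the gene body. Klf2, Klf11, Klf17, Sp7, Gm38457 and Gm35464 were named after their values were seen. Alternatives covered the distance, stricter peaks, the midpoint, the annotation, the B1 SINE and motif definitions and the part of the peak searched. The sequences of 2 elements in member peaks are not reported here.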

Additional observations from a re-analysis of the deposited data

How the results depend on the processing

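Of 43 alternatives, 27 left the result within 1.5 times of its count or inside its Wilson interval. Klf4 had no peak in any of the 7 that counted genes with a peak. Within the gene body alone the count of genes with a peak fell from 9 to 4, the peaks from 40 to 6 and the other network genes from 17 to 6. Of all genes, 17.1% had a peak in the gene body. At 10 kb 7 genes had a peak (27.2% of all genes), the peaks numbered 19 and the other genes 11, and at 100 kb 9 genes had one (65.4% of all genes) and the peaks numbered 68. With only peaks of signal value above 1 and q under 0.05, 5 genes, 9 peaks and 10 other genes remained. Of all genes, 21.9% had such a peak within 50 kb. A KLF motif was present in 77.8% of these 9 peaks (37.8% of all such peaks). Of their 11 KLF occurrences, 18.2% lay in a B1 SINE (12% over all such peaks). With all peaks at 10 kb, 0 of 21 did (9.50% over all peaks). In the central 500 bp of the peaks the shares were 10% for B1 SINEs, 17.5% for AP-1 and 30.0% for KLF motifs, against 13.1%, 15.7% and 14.8% of all peaks. With the 9-letter KLF motif the share was 12.5% (12.4% of all peaks). Without Klf10 peak 1, which holds the most KLF motifs, an alternative added after the data had been seen, 53.8% of peaks held a KLF motif. The midpoint rule removed Klf9 peak 1 and left 39 peaks. GENCODE and predicted RefSeq genes gave 9 genes and 40 peaks. No paired analysis was possible because the list pools all samples and holds no value of a single one. For the same reason no replicate could be left out, and what read depth limits is unknown.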
